A study of Rattus norvegicus with 6 samples.

Results

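The Toll-like receptors and the proteins that pass on their signal were examined in cardiac fibroblasts of neonatal rats (NRCFs), which are cultured from the hearts of newborn animals. The group was chosen by gene symbol and holds 10 genes. They are the receptors Tlr2, Tlr3, Tlr4, Tlr7 and Tlr9, the lipopolysaccharide co-receptors Cd14 and Ly96, the adaptors Myd88 and Ticam1, and the inhibitor Irak3. Of these, 8 were analysed among 21857 gene symbols, and Ly96 and Ticam1 are not analysed here. The Vector group, whose genotype label is WT, had received an empty plasmid. The other group, labelled FTO overexpression, had received a pcDNA plasmid carrying rat FTO, the demethylase that removes N6-methyladenosine from RNA. Each group had 3 libraries. The pups were Sprague-Dawley rats of at most 3 days by the series' design, although the strain field reads Noway. Both groups were transfected with plasmid DNA by a lipid reagent, and untransfected cells are not analysed here. The study's methods describe NRCFs kept both in a standard incubator and in a low-oxygen chamber, and which applied to these libraries is not given in the sources used here. Nothing states whether the libraries of a group came from separate cultures, so p-values measure the spread between these libraries, which may be technical.

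Toll-like receptors recognise molecules of microbes and of damaged cells. TLR2 and TLR4 sit at the cell surface and respond to bacterial lipoproteins and lipopolysaccharide, and CD14 hands lipopolysaccharide to TLR4. TLR3, TLR7 and TLR9 sit in endosomes and respond to double-stranded RNA, single-stranded RNA and unmethylated CpG DNA. All of these receptors except TLR3 signal through MyD88 and the IRAK kinases to NF-κB, while TLR3 and, from endosomes, TLR4 use TRIF, the product of Ticam1, to reach the interferon regulatory factors. IRAK3, also called IRAK-M, lacks strong kinase activity and restrains MyD88 signalling. In the heart these receptors are known from fibroblasts, cardiomyocytes, endothelial cells and resident macrophages, where they take part in the response to infarction.

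The libraries held 13178952 to 17857999 counts. Fto itself averaged 88.3 CPM (counts scaled to library size, with TMM factors) in Vector and 92.3 CPM in the other group, a difference of 0.06 on the log2 scale (SE 0.0468, n = 3 each). Its adjusted p-value in edgeR's quasi-likelihood test was 0.239, so no rise was detected and the second group is named here by its label. All 10 fibroblast markers of the list were present, at a summed 40144 to 40780 CPM in Vector and 19833 to 20823 CPM in the libraries labelled FTO. The sum is mostly that of the collagen genes Col1a1 (25809 and 8268 CPM on average) and Col3a1 (10699 and 3338 CPM), and of the 10 genes 6 fell and 4 rose. Dcn and Lum, which encode matrix proteoglycans, and Pdgfra, a receptor of fibroblasts, rose 119-fold, 8.87-fold and 5.63-fold. They were named because their changes were the largest in size of the 10. Markers of macrophages, cells that carry most of these receptors, were present too and differed between the groups. Their sum over 17 genes was 2064 to 2128 CPM in Vector and 324 to 368 CPM in the libraries labelled FTO, and 16 fell while 1, Adgre1, rose by a log2 fold change of 2.22. None of the 17 was at 0 in all libraries. The B-cell and plasmacytoid dendritic markers, the cells best known for TLR9, had at most 3 counts in any library for each of 7 genes, and Ms4a1, Pax5 and Siglech had none.

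Of the 8 genes, 7 had enough counts for the test, and 6 of them passed an adjusted p-value of 0.05 in edgeR's quasi-likelihood test, 5 of them upward and 1 downward under the FTO label. Over all 12941 genes tested 65.9% passed, 33.2% higher and 32.8% lower, so a passing gene is common in this comparison. At a log2 fold change of at least 1 in size with a p-value under 0.05, 2 of the 7 passed, Irak3 and Tlr2, both higher. Of all genes 19.6% did, 10.4% higher and 9.27% lower. In 6 of the 7 no Vector library overlapped a library of the other group in CPM, against 70.3% of all genes. The 7 genes had a median log2 fold change of 0.70, and all genes had one of 0.00.

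**Figure D1:**
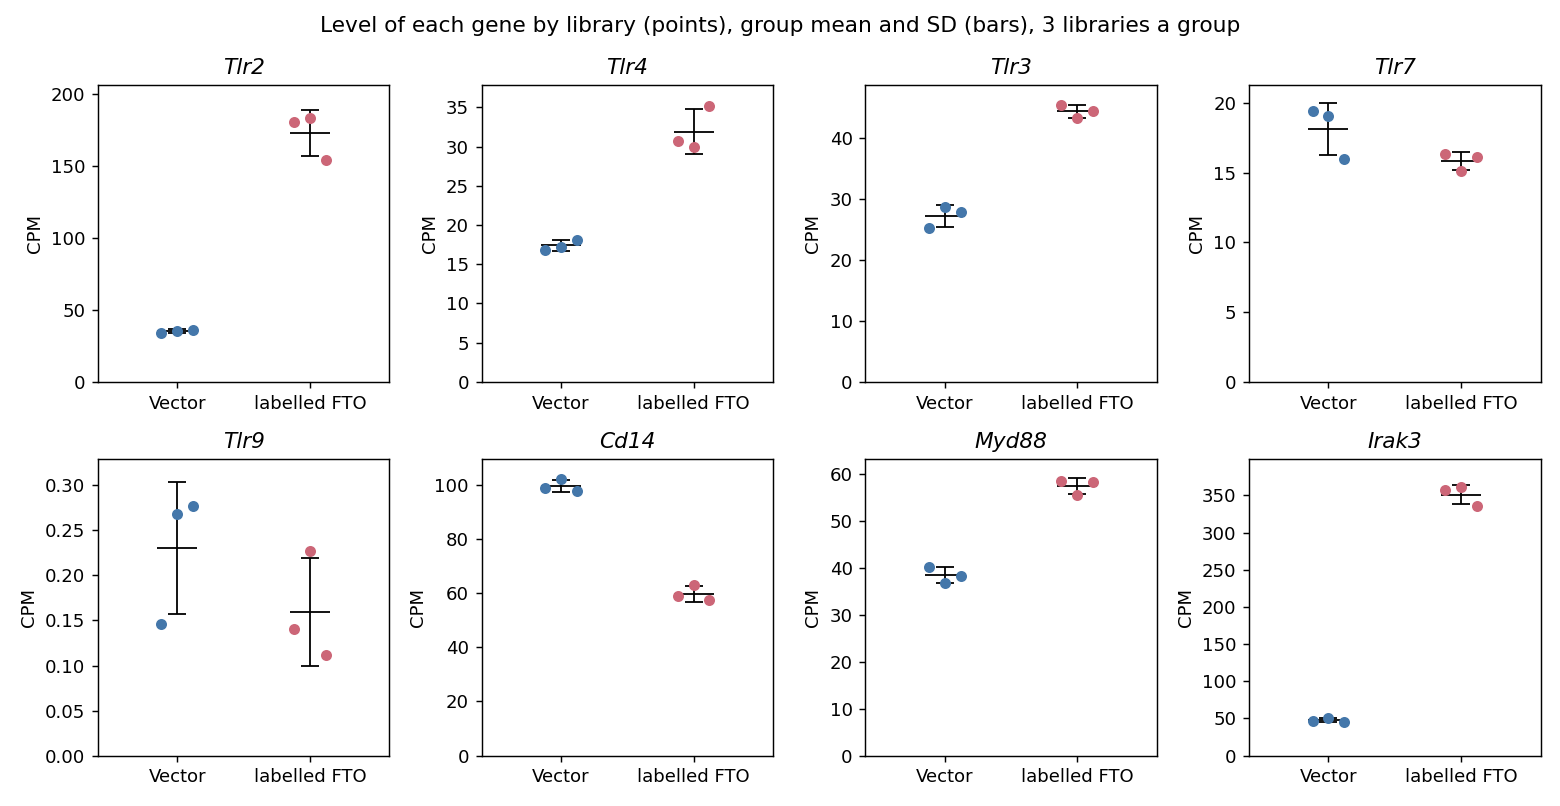
CPM (TMM-scaled, axes from 0) of each of the 8 genes in each library, with the group mean and SD of 3 libraries. Irak3 and Tlr2 sit far above Vector in every library labelled FTO, Tlr4, Tlr3 and Myd88 lie moderately above it, Cd14 lies below it, and the groups overlap for Tlr7 and Tlr9.

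Among the surface receptors, Tlr2 rose most. Tlr2 was at 33.8, 35.5 and 36.4 CPM in the Vector libraries against 180.9, 183 and 154 CPM under the FTO label. The groups lay far apart, and FTO replicate 3 was the lowest of its group. The log2 fold change was 2.29 (SE 0.0693, adjusted p-value 1.8e-13 in edgeR's test), a 4.90-fold rise with a 95% interval of 4.42 to 5.43. Of all genes tested, 96.2% had a lower or equal change.

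The region before the start of Tlr2 is shown because its promoter window held an NF-κB consensus. Among the other members analysed only that of Irak3 did. Promoters were taken from RefSeq on build GRCr8, as 250 bases before and 50 after the annotated start, and the counts were made on rn6. Only the bases before the start are printed, 5′ to 3′ along the gene, with capitals on matches of the motifs searched.
Tlr2, chr2:171504558-171504807, minus strand: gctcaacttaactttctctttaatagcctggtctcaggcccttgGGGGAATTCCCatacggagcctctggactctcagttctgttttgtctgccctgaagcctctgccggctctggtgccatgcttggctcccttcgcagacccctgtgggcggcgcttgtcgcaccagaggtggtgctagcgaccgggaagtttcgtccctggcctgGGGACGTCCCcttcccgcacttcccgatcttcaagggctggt
Matches to the NF-κB consensus began 206, 205 and 42 bases before the start, the first and second overlapping. Over all 33465 promoters of this length, 7.52% held such a match on either strand. That share was not matched for base content, and the consensus is rich in G and C. The 250 bases before the start were 60% G or C for Tlr2 and 66% for Irak3. For Tlr3, Tlr4, Tlr7, Tlr9 and Myd88 they were 42.4% to 54.4%. Whether NF-κB had a part in either rise was not tested. A match describes letters in this window and not binding.

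Tlr4, the lipopolysaccharide receptor, rose less. Its libraries were at 16.8, 17.2 and 18.1 CPM in Vector against 30.7, 29.9 and 35.1 CPM under the FTO label. The groups did not overlap, with FTO replicate 3 the highest here, whereas it was the lowest for Tlr2. Tlr4 rose by 0.88 on the log2 scale (SE 0.0850, adjusted p-value 2.6e-07 in edgeR's test), or 1.84-fold with a 95% interval of 1.62 to 2.08.

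The ratio of Tlr2 to Tlr4 counts within a library does not depend on scaling between libraries. It averaged 2.02 ± 0.0302 in Vector and 5.48 ± 0.944 with the FTO label (SD, n = 3 each), 2.68-fold higher. The groups did not overlap. Ratios were taken for 10 pairs of genes chosen after the values were seen, and in all 10 the exact two-sided permutation test gave 0.1, adjusted 0.1, the smallest p-value that 3 libraries against 3 allow.

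Cd14, which binds lipopolysaccharide and presents it to TLR4, moved the other way. It was at 98.8, 102 and 97.5 CPM in Vector against 58.7, 63.0 and 57.2 CPM under the FTO label. Each library labelled FTO lay below each Vector library. The log2 fold change was -0.74 (SE 0.0535, adjusted p-value 8.3e-09 in edgeR's test), which is 1.67-fold lower. The ratio of Cd14 to Tlr4 was 5.87, 5.92 and 5.37 in Vector and 1.92, 2.11 and 1.63 in the other group. It was 3.05-fold lower, and the ratio of Cd14 to Tlr2 was 8.17-fold lower. Cd14 is also abundant in macrophages, whose marker sum fell as given above, and the part of these cells in the fall of Cd14 was not tested. In bulk RNA, fewer cells of a type and less RNA per cell cannot be told apart.

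Of the endosomal receptors, Tlr3 rose, Tlr7 did not pass the test and Tlr9 was barely detected. Tlr3, the receptor for double-stranded RNA, was at 25.2, 28.6 and 27.9 CPM in Vector against 45.4, 43.3 and 44.4 CPM under the FTO label. The values were tight in both groups and did not overlap. Tlr3 rose by 0.70 on the log2 scale (SE 0.0684, adjusted p-value 2.9e-07 in edgeR's test), a 1.63-fold rise with a 95% interval of 1.47 to 1.80. LOC134482381 overlaps Tlr3 in the RefSeq table, so reads of this pair may not have been kept apart.

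Tlr7, the receptor for single-stranded RNA, was at 19.4, 19.1 and 16.0 CPM in Vector against 16.3, 15.1 and 16.1 CPM under the FTO label. The groups overlapped because Vector replicate 3 lay among the libraries labelled FTO. The log2 fold change was -0.19 (SE 0.0968, adjusted p-value 0.0913 in edgeR's test), with a 95% interval of the fold change of 0.758 to 1.01. Without Vector replicate 3 the change was -0.28 and the adjusted p-value 0.0258, so this call turned on that library. Tlr9 had 2, 4 and 4 counts in Vector and 2, 3 and 2 counts in the libraries labelled FTO. These are near the floor of 3 counts, worth 0.168 to 0.227 CPM, and no difference was detectable at this depth. The exact two-sided permutation test gave p = 0.2, where 3 libraries against 3 cannot go below 0.1, so that test carries no weight here. Rpl29, a ribosomal protein gene, overlaps Tlr9 in the RefSeq table, so even these few counts are uncertain.

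Tlr7 may be set beside Tlr8, its close relative and also a receptor for single-stranded RNA. Tlr8 averaged 11.5 ± 1.48 CPM in Vector and 2.48 ± 0.151 CPM in the other group (SD, n = 3 each). It fell by 2.21 on the log2 scale (SE 0.157, adjusted p-value 6.5e-09 in edgeR's test). The ratio of Tlr7 to Tlr8 counts was 1.74, 1.87 and 1.22 in Vector and 6.66, 5.71 and 6.86 in the libraries labelled FTO. It was 4.03-fold higher without overlap. The macrophage markers had a median log2 fold change of -2.09, and their part in either receptor's level was not tested.

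The adaptor Myd88, shared by nearly all of these receptors, rose by a modest amount. It was at 40.2, 36.7 and 38.3 CPM in Vector against 58.4, 55.4 and 58.3 CPM under the FTO label. The groups did not overlap. Myd88 rose by 0.58 on the log2 scale (SE 0.0607, adjusted p-value 6.4e-07 in edgeR's test), a 1.49-fold rise with a 95% interval of 1.37 to 1.64. Acaa1a overlaps Myd88 in the RefSeq table, and whether strand was used in counting is not given in the sources used here, so reads of this pair may not have been kept apart.

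The promoter of Myd88 is shown because it was the only one of the 8 with the interferon-stimulated response element (GAAA, any 2 bases, GAAA) or the STAT site TTCNNNGAA.
Myd88, chr8:127956231-127956480, minus strand: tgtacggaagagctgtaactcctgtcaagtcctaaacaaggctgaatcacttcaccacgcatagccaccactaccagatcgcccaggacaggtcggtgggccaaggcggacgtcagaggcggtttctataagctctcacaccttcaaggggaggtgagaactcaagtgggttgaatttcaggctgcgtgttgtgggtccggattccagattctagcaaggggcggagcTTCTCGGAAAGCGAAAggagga
The STAT site began 22 bases and the response element 16 bases before the start, and they overlap, so the capitals form 1 run. Over all promoters of the table, 3.92% held the response element and 8.87% the STAT site on either strand.

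Irak3 showed the largest change of the group. It was at 46.5, 50.5 and 45.8 CPM in Vector against 357, 361 and 336 CPM under the FTO label. The libraries within each group were close to each other and far from the other group. The log2 fold change was 2.88 (SE 0.0525, adjusted p-value 4.5e-16 in edgeR's test), a 7.37-fold rise with a 95% interval of 6.81 to 7.96, and 97.3% of all genes tested had a lower or equal change. Its promoter window held 1 match to the NF-κB consensus, which began 34 bases before the start.
Irak3, chr7:57598632-57598881, minus strand: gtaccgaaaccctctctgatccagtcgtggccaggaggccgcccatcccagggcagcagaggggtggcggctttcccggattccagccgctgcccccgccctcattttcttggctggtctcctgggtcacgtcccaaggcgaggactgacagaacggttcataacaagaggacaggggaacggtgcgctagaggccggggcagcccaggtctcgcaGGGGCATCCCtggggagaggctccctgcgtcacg

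The other genes of the IRAK family had smaller log2 fold changes. Irak1 had a log2 fold change of 0.26 (SE 0.0445), Irak2 of 0.52 (SE 0.115) and Irak4 of 0.34 (SE 0.0666), all with adjusted p-values under the threshold in edgeR's test, of 1.2e-04, 0.00108 and 4.1e-04. Against a change of 1.2-fold (glmTreat in edgeR) Irak1 and Irak4 no longer passed, with adjusted p-values of 0.465 and 0.105. The ratio of Irak3 to Irak4 counts was 1.30, 1.48 and 1.34 in Vector and 7.91, 8.89 and 7.37 in the libraries labelled FTO, 5.86-fold higher. The ratio to Irak1 was 6.17-fold higher and that to Irak2 was 5.18-fold higher. Against the adaptor, the ratio of Irak3 to Myd88 averaged 1.24 ± 0.118 in Vector and 6.13 ± 0.377 in the other group (SD, n = 3 each), 4.94-fold higher. In none of these ratios did the groups overlap, and the ratio of Irak3 to Tlr2 was 1.51-fold higher.

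**Figure D2:**
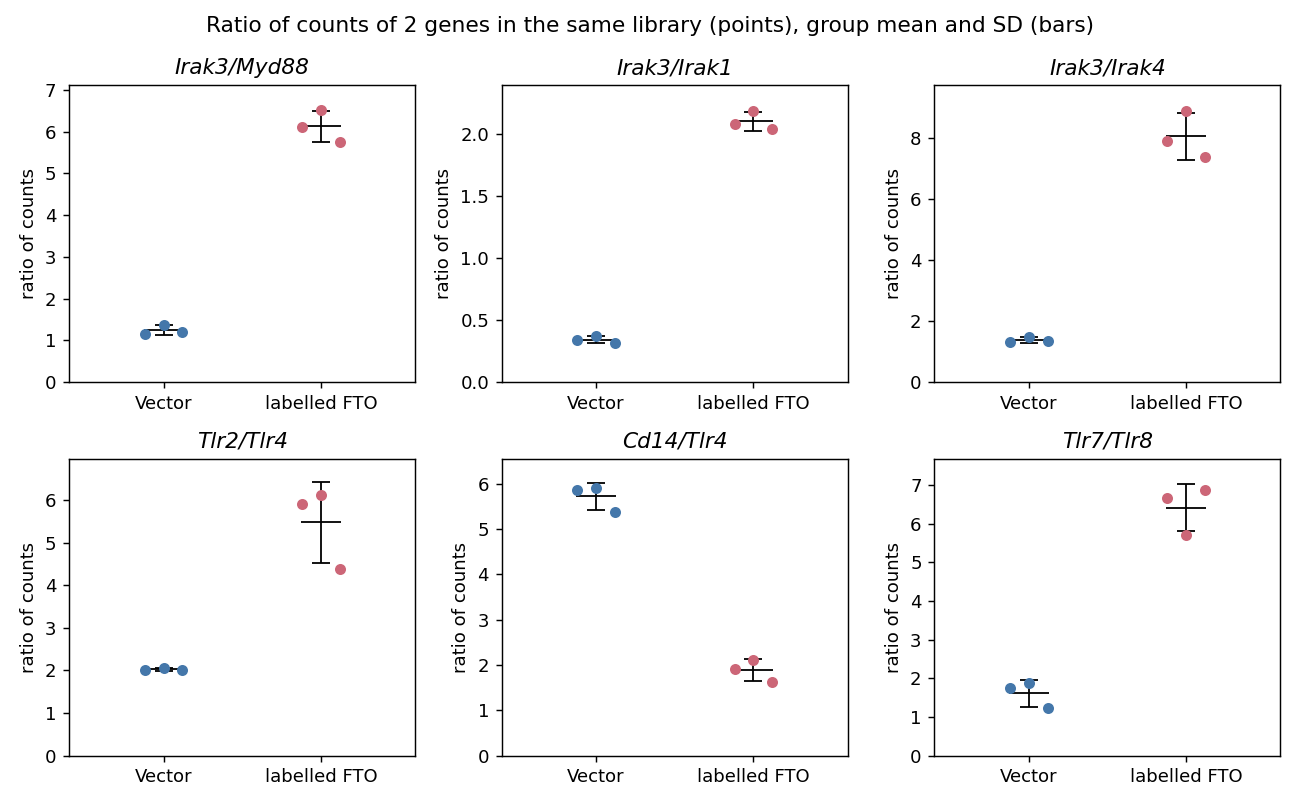
Ratio of the counts of 2 genes in the same library (linear axes from 0), with group mean and SD of 3 libraries. Irak3 over Myd88, Irak1 and Irak4, Tlr2 over Tlr4 and Tlr7 over Tlr8 are higher in all libraries labelled FTO, and Cd14 over Tlr4 is lower in all of them.

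The biological coefficient of variation fitted by edgeR was 4.23% (Cd14) to 5.95% (Tlr7) for the 7 genes tested. This estimate borrows from other genes, which narrows its range, and the spread behind it may be technical. The spread of the CPM values was less alike. In the libraries labelled FTO the SD was 16.1 CPM on a mean of 173 CPM for Tlr2, and 1.02 on 44.4 CPM for Tlr3. Levels are not compared between genes, because transcript lengths were not used here.

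**Figure D3:**
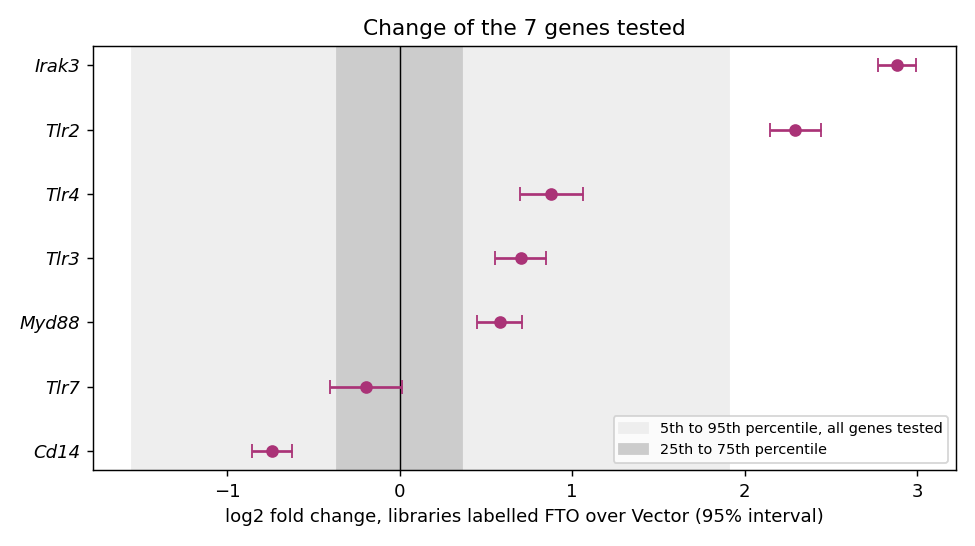
Fold change (log2, FTO label over Vector) with its 95% interval for the 7 genes tested, over bands that hold the middle 50% and 90% of all 12941 genes. Irak3 and Tlr2 lie above the wider band, the interval of Tlr7 includes 0, and Cd14 is on the negative side.

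The other genes of the pathway were then compared by role. Of 71 genes listed, 68 were analysed and 64 tested, and 45 passed in edgeR's test, 28 higher and 17 lower. That is 70.3%, against the 65.9% of all genes, with a median of 0.08 on the log2 scale. The share was near the background, so the pathway as a whole was not set apart by its count. Against a change of 1.2-fold (glmTreat in edgeR) 31 pathway genes and 5668 of all genes passed. The counts by role below stand beside the same share over all genes, 33.2% higher and 32.8% lower.

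Among the other receptors, 4 of 6 tested passed, 1 higher and 3 lower. Tlr8 fell as given above, Tlr13, a receptor for bacterial ribosomal RNA, changed by -1.52, and Tlr6, the partner of TLR2 for diacylated lipoproteins, changed by -0.63 on the log2 scale. Tlr6 was at 6.21 ± 0.0984 CPM in Vector and 3.97 ± 0.396 CPM in the libraries labelled FTO, opposite in direction to Tlr2. Cd180, a relative of TLR4 without a signalling domain, was the one that rose, by 0.53. Tlr11 had no count in any library.

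Of 5 genes for ligand carriers and co-receptors, 2 rose and 2 fell. Lbp, the protein that carries lipopolysaccharide to CD14, averaged 40.8 ± 0.698 CPM in Vector and 710 ± 66.6 CPM with the FTO label. It rose by 4.12 on the log2 scale (SE 0.0676, adjusted p-value 1.3e-16 in edgeR's test). Lbp rose in the same libraries in which Cd14 fell. Tril, an accessory of TLR4, fell from 85.3 to 27.9 CPM. Ly86, the partner of CD180, had 12 to 23 counts in Vector and 0, 1 and 0 with the FTO label, too few for a fold change. It passed the count filter only through the Vector libraries, so its place among the 2 that fell is a description and not a test. Hmgb1 had only 28 to 54 counts in a library. It changed by 0.57, with adjusted p-values of 0.0212 to 0.102 over its alternatives, so its call was not stable.

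In receptor folding and transport, 1 of 7 rose and 4 fell, all by less than 2-fold. Cnpy3, a chaperone of Toll-like receptors, rose by 0.58, while Rab7b, which sends TLR4 to lysosomes, changed by -0.64 and Tmed7, which helps move TLR4 out of the endoplasmic reticulum, by -0.37 on the log2 scale. Of 5 further adaptors 3 fell and 0 rose. Tasl, the adaptor of TLR7 to TLR9 for IRF5, changed by -2.62 (SE 0.347), with only 6, 3 and 7 counts under the FTO label. Tasl passed the count filter only through the Vector libraries. Ticam2, which links TLR4 to TRIF, changed by -0.97 and Pik3ap1 by -0.45. Myd88, which rose, was thus opposite in direction to each of these 3.

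Of 9 kinases tested, 6 rose and 1 fell. Map3k8, the kinase that opens the ERK branch, changed by 2.17 and Ikbke, an interferon-inducing kinase, by 1.35 on the log2 scale. Chuk was the one that fell, by 0.14 on the log2 scale, and it lost its call in 11 of 14 alternatives. Among TRAF proteins, ubiquitin enzymes and scaffolds 4 of 12 rose, 1 fell and 7 did not pass. Peli1, a ubiquitin ligase that acts on IRAKs, rose by 1.22, Tank by 1.13 and Traf3 by 0.39, and Tab2 changed by -0.31. All 7 transcription factors passed, 6 of them higher, Irf7 from 4.93 to 1434 CPM, Nfkb1 by 1.25 and Irf1 by 0.97, and Irf3 lower with a change of -0.33. Against a change of 1.2-fold (glmTreat in edgeR) Tab2 and Irf3 no longer passed, with adjusted p-values of 0.122 and 0.089.

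Of 13 inhibitors tested, 8 rose and 2 fell. Tnip3, Tnfaip3, which encodes the deubiquitinase A20, and Tnip1, which binds A20, rose by 3.88, 3.51 and 2.92 on the log2 scale. Tnfaip3 is a known target of NF-κB. Il1rl1, the receptor for IL-33, and Rnf216 were the pair that fell, with changes of -1.55 and -0.19. Rnf216 lost its call without Vector replicate 2 (adjusted p-value 0.0622 in edgeR's test) and against a change of 1.2-fold (0.889).

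**Figure D4:**
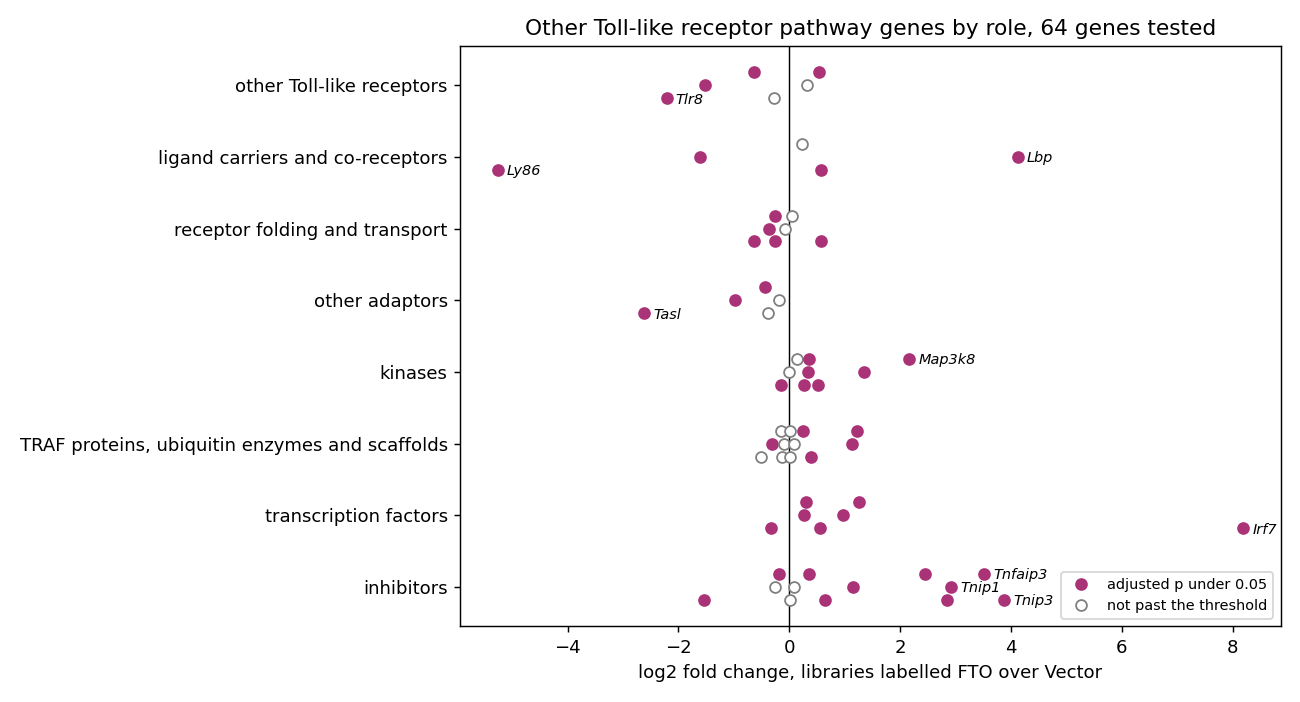
Fold change (log2, FTO label over Vector) of the 64 other pathway genes tested, in rows by role, filled where the adjusted p-value was under 0.05. Points spread to both sides of 0 for receptors, carriers and transport genes, while most filled points of kinases, transcription factors and inhibitors lie to the right.

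The tested transcripts known to be induced downstream of these receptors were higher. All 10 tested genes of the MyD88 and NF-κB list rose, with a median log2 fold change of 6.30. All 9 tested of the TRIF and interferon list rose, with a median of 8.60, or 8.33 with genes near 0 in Vector set to their bounds. Of all genes tested, 33.2% passed as higher and 10.4% were past 2-fold higher. Both lists were chosen with earlier results of these data known. Genes low in Vector passed the count filter only through the libraries labelled FTO. These were not only the 4 of the 19 at or under the floor in Vector. Cxcl2 (4, 4 and 2 counts in Vector), Il1b (10, 7 and 1), Ccl20 (5, 2 and 9) and Cxcl10 (6, 5 and 5) were examples above it. The counts and medians of both lists include such genes. Listed genes near 0 in both groups were not tested, so a rise of every tested gene is a description and not a test. Examples were Lcn2, from 2.18 to 3483 CPM, and Cxcl6, 0, 0 and 2 counts in the Vector libraries and a mean of 786 CPM in the libraries labelled FTO. Ifit3 went from 0.742 to 495 CPM. Tnf and Ifnb1, the classic early products of both arms, had 0 counts in all 6 libraries, which allows at most the floor of 3 counts in each. These genes respond to other stimuli as well, and which receptors were engaged was not measured.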

How the data were processed

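The deposited values are unnormalized counts by gene symbol, made by the authors for 3 Vector and 3 FTO overexpression libraries of NRCFs made with a NEBNext Ultra kit from total RNA. The submitters' processing notes name Trimmomatic and build rn6, and the aligner, counting program, annotation and use of strand are not given in the sources used here. Groups came from the genotype labels.

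Genes were kept with filterByExpr (minimum count 10), which left 12941 genes with at least 99.9% of the counts, and scaled by TMM. The comparison used edgeR 4.0.16 in R 4.3.3 with its two-sided quasi-likelihood test with Benjamini-Hochberg adjustment over all genes. Values are mean ± SD of CPM, and the SE was derived by dividing each log2 fold change by the root of its F value. A floor of 3 counts per library bounded fold changes, and intervals cover counting error and library spread only. The procedure was tested on simulated data. Within groups, libraries differed by more than sampling noise (chi-square per degree of freedom 1.58 to 8.38).

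The genes, lists and tests were chosen with earlier results of these data known. Named were all members, Fto, up to 3 genes for each role (4 for other lists) with the largest changes among those that passed the adjusted threshold of 0.05 without overlap and had a mean of at least 10 counts, and, after values were seen, the IRAK genes, members alone or few in a direction, genes at 0 counts, and the 10 ratios. Alternatives were DESeq2 1.42.0, limma-voom (limma 3.58.1), DESeq2 size factors, library size alone, 2 other filters, a block for replicate number, a test against a change of 1.2-fold (glmTreat), and leaving out each library.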

Additional observations from a re-analysis of the deposited data

How the results depend on the processing

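Of the members, 6 passed the adjusted threshold in edgeR's test and under each alternative except without Vector replicate 3, where Tlr7 made 7, and 2 were past the 2-fold threshold under all 14 alternatives. In every one of these fits Irak3, Tlr2, Tlr4, Tlr3, Myd88 and Cd14 kept their direction and call. Their log2 fold changes ran from 2.85 to 2.92, 2.25 to 2.37, 0.80 to 0.92, 0.65 to 0.74, 0.54 to 0.61 and -0.78 to -0.71, and that of Tlr7 from -0.28 to -0.15. The count over all genes, 8531, moved by more than 1.5 times only under glmTreat, to 5668, since that test asks for more than a 1.2-fold change. Among 54 genes followed, 8 (Tlr7, Hmgb1, Chuk, Rnf216, Irak1, Irak4, Irf3 and Tab2) changed in some alternative, with 22 calls lost, 1 gained and 0 reversed, the cause of which was not tested. Replicate numbers did not pair the libraries: deviations from the group means correlated at 0.006, -0.087 and 0.044 for libraries of the same number. With the replicate block 6 members and 8399 of all genes passed. In all 10 ratios the groups did not overlap, so leaving out a library could not change a direction. Depth limits Tlr9, Ly86, Tasl and the genes near 0 in Vector.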

Other observations

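Markers of other cell types, beside those of macrophages, were also measured. Their counts below stand beside the share over all genes tested, 33.2% passing as higher and 32.8% as lower. Of 7 cardiomyocyte markers tested 6 rose and 1 fell under the FTO label (edgeR's test, adjusted p-value under 0.05), and their sum was 1408 to 1429 CPM in Vector and 1969 to 1998 CPM in the other group. Of 6 endothelial markers tested 3 were higher and 2 lower, with sums of 33.5 to 34.9 and 51.0 to 51.6 CPM. Of 10 fibroblast markers 4 were higher and 6 lower. The T-cell markers Cd3d and Cd3e had no count in any library, while Cd4, which rat macrophages also carry, fell from 28.6 to 6.61 CPM. In all, 2 of the 3 tested T-cell markers passed as lower, Cd4 and Cd8a. Cd8a had 3, 2 and 4 counts under the FTO label and passed the count filter only through Vector. Of the neutrophil markers Mpo and Elane had no count in any library. The 2 that were tested, Camp and S100a8, were higher, at 5.36 and 1.95 CPM in the libraries labelled FTO. In Vector Camp had 1, 0 and 3 counts and S100a8 had 3, 7 and 2. Both thus passed the count filter only through the libraries labelled FTO. Csf3r, which had too few counts for the test, lay the other way, with 9, 12 and 13 counts in Vector and 2, 1 and 1 under the FTO label. The part of any of these cell types in the levels of the Toll-like receptors was not tested.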
